A study of Mus musculus with 69 samples.

Results

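The 8 genes described here encode the angiotensin receptors Agtr1a, Agtr1b and Agtr2, the receptor-associated protein Agtrap, the angiotensin precursor Agt, the enzymes Ace and Enpep, and Atp6ap2, the (pro)renin receptor. They were chosen by name, and their rows were found through the Ensembl identifiers of the count tables, which gave 8 members among 56953 identifiers. After the filter on low counts all 8 were tested in WT VSMC and in KO VSMC, and 6 in EC, where Agtr1b and Agtr2 were too low to be tested.

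Primary vascular smooth muscle cells (VSMC) came from the aorta of male C57BL/6 mice, either wild-type (WT VSMC) or carrying floxed Egfr alleles and an SM22-cre transgene that drives Cre from a smooth muscle promoter (KO VSMC). Endothelial cells (EC) came from the heart of male mice labelled WT and had been isolated with CD31 beads after removal of CD45+ cells. Cells of up to 7 passages were kept without serum and then stayed untreated (Control) or received stressors for 24 h. HG + FFA was 20 mM glucose with free fatty acids, given as 100 µM in the labels and as 100 µM each of oleate and palmitate in the study's methods. AII + NA was 30 nM angiotensin II with 300 nM of a catecholamine that the deposited labels call epinephrine and the study's methods norepinephrine, and ALL was the combination. The ages of the animals are not given in the sources used here. The untreated cells and their stressed partners form numbered sets from 1 animal and passage. WT VSMC were sets 1 to 4, with n = 4 in each group. KO VSMC were sets 5 to 8, with n = 4 in each group except ALL. That group had n = 3 because the data used here hold no ALL library of set 5. EC were sets 9 to 18, with n = 9 for Control, n = 9 for AII + NA and n = 10 for HG + FFA and for ALL. For EC the data hold no Control library of set 10 and no AII + NA library of set 15. EC sets 17 and 18 share an animal, EC sets 9 and 10 come from the animals of WT VSMC sets 1 and 2, and EC sets 15 and 16, though labelled WT, carry the animal numbers of KO VSMC sets 7 and 6.

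Library totals were 23626664 to 37801299 counts for WT VSMC, 23238979 to 35120866 for KO VSMC and, for EC, 17166133 to 43240489. A limit of 3 counts corresponds to 0.0817 to 0.14 FPM, the count relative to the scaled library total, for WT VSMC, 0.0864 to 0.142 for KO VSMC and, for EC, 0.07 to 0.185, and values below it are read as not detectable at this depth. Egfr, the deleted gene, ranged from 226 to 500 FPM in the WT VSMC libraries and from 0.534 to 40.2 FPM in the KO VSMC libraries, with set 5 averaging 36.5 FPM. Against the labels, 3 EC sets (9, 11 and 13) had summed endothelial markers of 60.4, 140 and 62.3 FPM, whereas the other EC sets held 548 to 4515 FPM. Fibroblast markers summed above endothelial ones also in EC sets 10 (2466 against 1964 FPM), 16 (3395 against 790 FPM) and 17 (4437 against 548 FPM). Of the smooth muscle markers, Acta2 was at 234 to 1029 FPM in WT VSMC Control, but Tagln was only at 1.66 to 4.5 FPM and Myh11 at 2.99 to 10.1 FPM. The summed fibroblast markers of the WT VSMC sets were 4361 to 9379 FPM, against 773 to 1304 FPM for smooth muscle markers. In bulk RNA, fewer cells of a type and less RNA per cell cannot be told apart.

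In the renin-angiotensin system, renin releases angiotensin I from angiotensinogen, the product of Agt, and angiotensin-converting enzyme, the product of Ace, turns it into angiotensin II. Angiotensin II acts on AT1 receptors, which in vascular smooth muscle couple to Gq and raise intracellular calcium and contraction, and on AT2 receptors, which mostly oppose them. Rodents carry separate genes for the AT1 receptor, Agtr1a and Agtr1b, whereas humans have a single one. Agtrap binds the AT1 receptor and promotes its internalisation, aminopeptidase A, the product of Enpep, cleaves angiotensin II to angiotensin III, and Atp6ap2 is also an accessory subunit of the vacuolar proton pump.

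Because Agtr1a and Agtr1b are related in sequence, the counts of each depend on how well their reads can be told apart. In GRCm39 Agtr1a lies at chr13:30518942-30566850 on the plus strand and Agtr1b at chr3:20368609-20421348 on the minus strand. Their coding sequences have 1077 bases each and differ at 99 positions (90.8% identity), and Agtr2 (chrX:21350763-21355403, plus strand) shares 48% of aligned coding bases with Agtr1a and 48.1% with Agtr1b. The following stretches, read from the genome and written along the coding strand, show the most alike and the least alike parts of the 2 AT1 receptor genes. The first is the longest run without a difference, coding bases 75 to 140, at chr13:30565011-30565076 (plus strand) and chr3:20370465-20370530 (minus strand):
Agtr1a and Agtr1b: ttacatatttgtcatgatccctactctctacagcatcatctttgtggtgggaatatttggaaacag
The others are the 60 coding bases with the most differences, coding bases 964 to 1023, at chr13:30565900-30565959 (plus strand) and chr3:20369582-20369641 (minus strand), with the 13 differing bases in capitals:
Agtr1a: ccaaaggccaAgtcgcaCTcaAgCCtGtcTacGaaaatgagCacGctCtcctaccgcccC
Agtr1b: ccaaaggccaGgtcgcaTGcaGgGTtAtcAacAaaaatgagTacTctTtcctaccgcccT
Over all exons the genes share 33 words of 50 bases and 0 words of 75 bases, so that no stretch of 75 bases is common to the exons of both, and the sequenced reads were longer than that. In Agtr1a 3.43% of exon bases have a near copy elsewhere in the genome, and multiply mapped reads were counted. For Agt (chr8:125279301-125296716, minus strand) 30.8% of exon bases lie under exons of Capn9 or Cog2 on the opposite strand and 22.5% have a near copy elsewhere in the genome, and for Atp6ap2 (chrX:12453960-12495037, plus strand) 27.1% have one. Exons of Ace (chr11:105858469-105880790, plus strand) lie to 17% under Gm11651 on the opposite strand. The strand setting of the counting is not given in the sources used here, so the counts of these genes are uncertain by what their partners contribute. Agtrap (chr4:148160185-148172538) and Enpep (chr3:129062824-129126369) both lie on the minus strand.

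In untreated cells, mean levels per kilobase of exon (FPKM) placed Atp6ap2 and Ace at the top in each cell type. The lowest level was that of Enpep for WT VSMC, of Agtr1a for KO VSMC and, for EC, of Agtr2. The length joins the exons of all annotated transcripts, 8257 bases for Agt, 6814 for Agtrap, 5589 for Ace, 4612 for Agtr1a and 2418 for Agtr1b. Transcripts present in these cells may be shorter, so the order of genes depends on this length. Before division by length, Agtrap and Ace had similar means in WT VSMC Control, at 67.3 and 66.6 FPM. In WT VSMC Control, Atp6ap2 stood at 26.1 ± 4.22 FPKM (SD, n = 4), Ace at 11.9 ± 8.29, Agtrap at 9.88 ± 2.81, Agtr1a at 2.62 ± 1.16, Agtr2 at 2.1 ± 1.98, Agt at 1.93 ± 1.38, Agtr1b at 1.24 ± 0.379 and Enpep at 0.775 ± 0.624 FPKM. The Atp6ap2 range lay above that of Ace, and the Agtrap range above that of Agtr1a, whereas Ace overlapped with Agtrap, and each gene from Agtr1a to Enpep overlapped with its neighbour. In KO VSMC Control, Ace reached 26.8 ± 18.2 FPKM (SD, n = 4) and Atp6ap2 21.1 ± 1.29, followed by Agtrap at 8.58 ± 1.55, Agt at 2.64 ± 2.67, Agtr2 at 1.01 ± 1.56, Agtr1b at 0.974 ± 0.704, Enpep at 0.428 ± 0.4 and Agtr1a at 0.154 ± 0.154 FPKM. Agtr1a, the most abundant receptor gene of WT VSMC by its mean, was the lowest of the 8 genes there. In EC Control the order was Atp6ap2 at 26.8 ± 5.12 FPKM (SD, n = 9), Ace at 22.4 ± 23.8, Agtrap at 8.22 ± 1.98, Agt at 2.43 ± 4.72, Enpep at 0.217 ± 0.335, Agtr1a at 0.133 ± 0.233, Agtr1b at 0.0997 ± 0.145 and Agtr2 at 0.0328 ± 0.0608 FPKM. For Ace, Agt, Enpep and the receptors in EC the SD was larger than the mean, and neighbours below Agtrap did not differ beyond it. The Ace range of EC, 3.97 to 82.7 FPKM, enclosed that of Agtrap, 4.81 to 11.6 FPKM. In KO VSMC Control, too, Ace at 6.19 to 46.9 FPKM enclosed Agtrap at 7.2 to 10.6 FPKM.

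**Figure D1:**
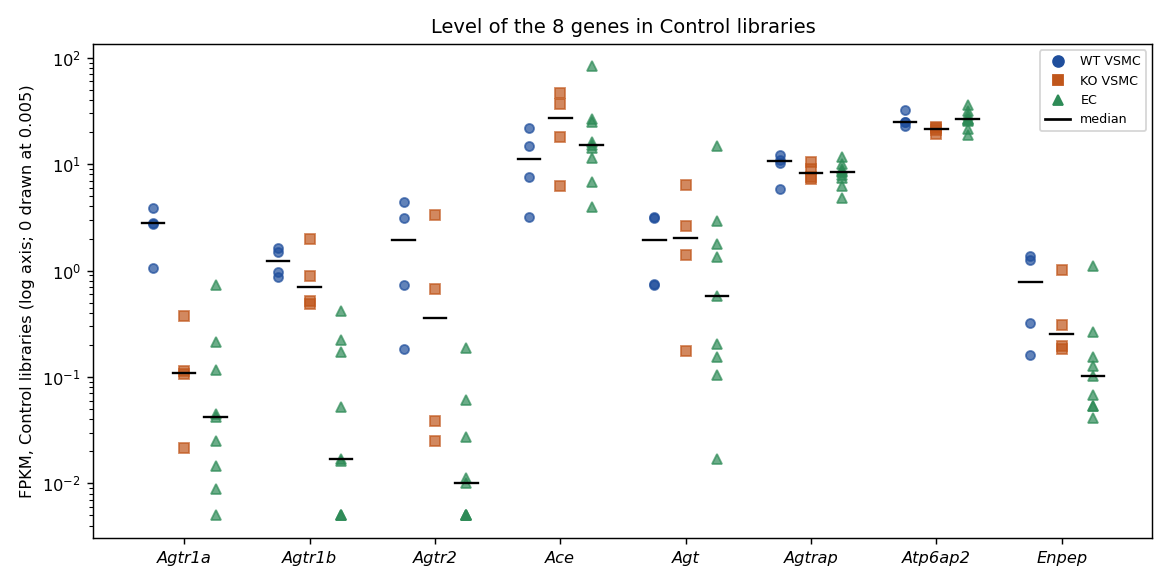
Level of the 8 genes in the Control libraries of WT VSMC, KO VSMC and EC, in FPKM on a log axis, with 1 point per library, values of 0 drawn at 0.005 and black lines for medians. Agtr1a lies at 1.05 to 3.86 FPKM for WT VSMC, 0.0217 to 0.377 FPKM for KO VSMC and, for EC, 0 to 0.727 FPKM.

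The question put to the receptor genes was whether they change when cells meet angiotensin II, their ligand, without or with metabolic stress. Angiotensin II was always given with the catecholamine, so the parts of these 2 cannot be told apart. In WT VSMC both AT1 receptor genes were higher and Agtr2 lower in all 4 sets under AII + NA and under ALL. With all stressors Agtr1a rose 1.91-fold (log2FC 0.93), Agtr1b rose 2.63-fold (log2FC 1.40), and Agtr2 fell by 1.48 on the log2 scale. Under HG + FFA no receptor gene was called, with log2FC -0.01 for Agtr1a, 0.04 for Agtr1b and 0.25 for Agtr2.

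The Agtr1a values of WT VSMC sets 1 to 4 were 12.7, 13, 4.85 and 17.8 FPM in Control, 8.22, 14.7, 6.59 and 18.8 FPM with HG + FFA, 17.5, 22.1, 9.57 and 49.3 FPM with AII + NA, and 13.7, 23.5, 11.5 and 52.5 FPM with ALL. Set 3 was the lowest and set 4 the highest in each group, so the groups overlapped, and the change showed within sets. With ALL the ratio to the set's own Control ran from 1.08 to 2.93, with a mean of 25.3 FPM against 12.1 FPM (log2FC 0.93, SE 0.18, adjusted p = 0.0057, edgeR's quasi-likelihood test with Benjamini-Hochberg adjustment over 16905 genes, n = 4 sets). With AII + NA the ratios were 1.38 to 2.76, but the change did not pass in edgeR (log2FC 0.91, SE 0.18, adjusted p = 0.106), whereas it did in DESeq2 (adjusted p = 0.00047). The adjusted p-values of these fits test whether the mean stressor effect over these sets differs from 0. The level of each set is taken out as a block, and the remaining spread is estimated over all 4 conditions.

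Agtr1b, the rodent duplicate of Agtr1a, had the larger relative increase. Its levels in WT VSMC sets 1 to 4 were 2.1, 3.64, 2.34 and 3.94 FPM in Control, 1.61, 4.65, 2.62 and 3.86 FPM with HG + FFA, 5.43, 10.8, 4.45 and 13.7 FPM with AII + NA, and 3.38, 11.7, 4.68 and 15.7 FPM with ALL. All 4 AII + NA libraries lay above all 4 Control libraries, and with ALL only set 1 fell into the Control range. The mean was 8.59 FPM with AII + NA against 3 FPM in Control (log2FC 1.44, SE 0.20, edgeR adjusted p = 0.0229), with ratios of 1.86 to 3.41. Agtr1b was the single member called in this comparison, in which 0.0532% of the tested genes were called (0.0473% higher), and 1% by DESeq2. The call was lost without set 1 (edgeR adjusted p = 0.0782), set 2 (0.224) or set 4 (0.0967), fits that called 0, 0 and 1 gene in all. With ALL the mean was 8.87 FPM (log2FC 1.40, SE 0.20, edgeR adjusted p = 0.001), and the ratios were 1.58 to 3.92.

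Agtr2, the AT2 receptor gene, moved the other way and differed widely between sets. Sets 1 to 4 of WT VSMC held 2.52, 10.7, 0.626 and 15.1 FPM in Control, 1.92, 17.1, 0.195 and 24.4 FPM with HG + FFA, 1.3, 5.75, 0.128 and 8.32 FPM with AII + NA, and 0.519, 3.64, 0.18 and 8.19 FPM with ALL. Sets 2 and 4 were high and sets 1 and 3 low in all groups, and the stressed values of set 3 rest on 4 to 7 counts. With ALL every set was below its Control, at 0.236 to 0.546 of it, and the means were 3.13 and 7.23 FPM (log2FC -1.48, SE 0.26, edgeR adjusted p = 0.00348). With AII + NA every set was lower too, at 0.314 to 0.555 of its Control, but the change did not pass in edgeR (log2FC -1.04, SE 0.26, adjusted p = 0.167, DESeq2 0.0129). The SD of Agtr2 between the WT VSMC sets was 2.39 on the log2 scale, larger than the SD of 0.847 within sets, whereas for Agtr1b the SD was 0.701 between and 0.822 within sets.

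**Figure D2:**
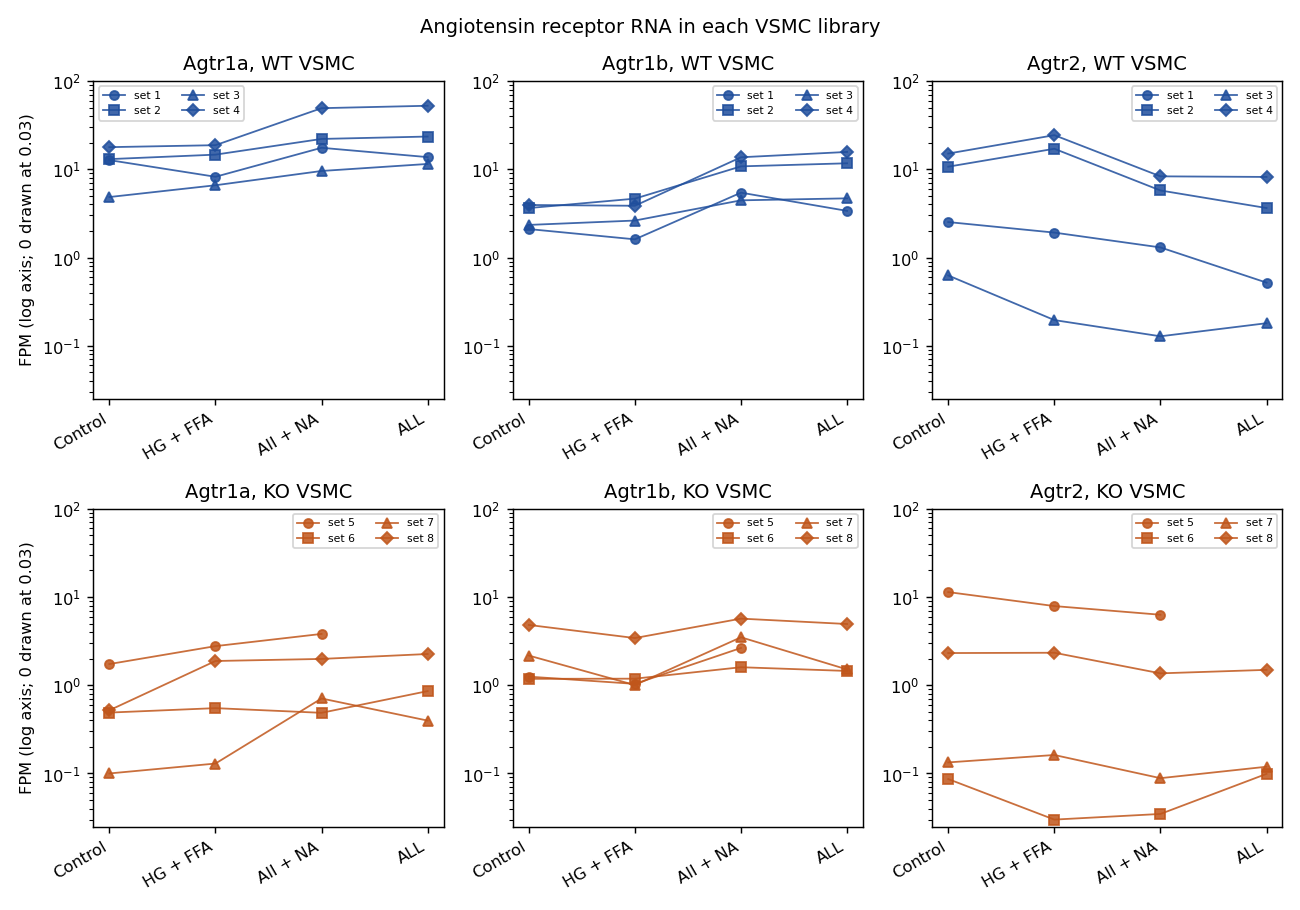
Agtr1a, Agtr1b and Agtr2 in each WT VSMC and KO VSMC library, in FPM on a log axis with 0 drawn at 0.03, with a line joining the Control, HG + FFA, AII + NA and ALL libraries of a set. In WT VSMC the Agtr1a and Agtr1b lines end higher with ALL than in Control in all 4 sets and the Agtr2 lines end lower, and in KO VSMC Agtr1a stays at or below 3.81 FPM.

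With ALL, 4 of the 8 members were called in WT VSMC, Agtr1a and Agtr1b as higher and Agtr2 and Ace as lower, beside 7.45% of all tested genes (3.92% higher, 3.53% lower). The 3 receptor genes also met the study's rule for a differentially expressed gene, which 2.22% of the genes met. They kept their calls without any single set, the highest edgeR adjusted p being 0.0495 for Agtr1a, 0.0127 for Agtr1b and 0.0275 for Agtr2. All 3 lost them when the set number was left out of the model (adjusted p = 1, 0.562 and 1). Smooth muscle markers moved with the AT1 receptor genes, since their median log2FC was 0.73 with AII + NA and 0.73 with ALL over 8 markers, of which 1 (Mylk) and 2 (Mylk and Tagln) were called. The part of cell state in the receptor changes was not tested.

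Set against each other per exon length, the AT1 receptor genes together exceeded Agtr2 in most WT VSMC libraries, and the ratio widened with AII + NA and with ALL. The sum of Agtr1a and Agtr1b in FPKM was 4.94, 1.39, 11.1 and 1.25 times Agtr2 in Control sets 1 to 4 and 4.39, 1.03, 44.3 and 0.8 times with HG + FFA. With AII + NA it was 16, 5.53, 105 and 6.76 times, and with ALL 29, 9.39, 84.6 and 7.51 times. In each set AII + NA and ALL both gave a higher ratio than Control and HG + FFA. The values of set 3 have little Agtr2 in the denominator. Exon lengths joined over all annotated transcripts were used, 4612 bases for Agtr1a, 2418 for Agtr1b and 3441 for Agtr2. The size of the ratios between these genes depends on that choice. Agtr1a exceeded Agtr1b per length in the WT VSMC libraries of these groups, by 3.17, 1.88, 1.09 and 2.37 times in Control, 1.69, 1.07, 1.13 and 1.89 times with AII + NA and 2.13, 1.05, 1.29 and 1.75 times with ALL.

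Adding angiotensin II and the catecholamine to HG + FFA raised Agtr1b (ALL against HG + FFA, log2FC 1.35, edgeR adjusted p = 0.0297) and lowered Agtr2 (log2FC -1.73, SE 0.26, adjusted p = 0.0297) in WT VSMC, where 0.0414% of the genes were called (0.0296% higher, 0.0118% lower). Agtr1a changed by a similar amount without passing (log2FC 0.95, adjusted p = 0.0748). Both calls were lost without set 2 (Agtr1b 0.161, Agtr2 0.205), set 3 (0.0777 and 0.058) or set 4 (0.195 and 0.147), and Agtr1a was called without set 1 (0.0447). Adding HG + FFA to AII + NA gave no called member beside 1.36% of the genes in edgeR, with log2FC 0.03 for Agtr1a, -0.04 for Agtr1b and -0.44 (SE 0.27, adjusted p = 0.51) for Agtr2. A direct test of whether ALL departs from the sum of the separate effects called no gene in edgeR (0%, with 290 genes at an unadjusted p under 0.05), and Agtr2 gave a departure of -0.70 (SE 0.36, unadjusted p = 0.0734, adjusted p = 1).

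Across the 16 WT VSMC libraries, after the mean of each set was taken out of the log2 levels, Agtr1a and Agtr1b varied together (r = 0.95) and Agtr2 against both (r = -0.71 and -0.76), and Agtr2 went with Ace at r = 0.39. These correlations share the 4 treatments and are descriptions. Among 11199 genes compared in this way, those most like Agtr1a were Lhfpl6 (r = 0.959), Agtr1b (0.953), the VEGF receptor gene Flt1 (0.951), the endothelin precursor Edn1 (0.947) and Fgfr2 (0.943). Those most like Agtr1b were the integrin subunit Itga8 (0.962), the histone deacetylase Hdac9 (0.958), Swap70 (0.954), the myosin light chain kinase Mylk (0.953) and Agtr1a (0.953). The closest to Agtr2 were Marcks (0.874), Rad9b (0.867), Flt3l (0.866), Poli (0.865) and Nrp1 (0.856).

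KO VSMC held little Agtr1a. Control sets 5 to 8 had 1.74, 0.49, 0.1 and 0.52 FPM, from 50, 17, 3 and 11 counts, with a mean of 0.712 FPM against 12.1 FPM in WT VSMC. Every KO Control library lay below every WT Control library, and the set with the highest Agtr1a, set 5, was also the one with the most Egfr left. Set 5 differed in markers too, with summed fibroblast markers of 5922 FPM against 1525 to 2177 FPM in sets 6 to 8. Its smooth muscle markers summed to 3284 FPM against 901 to 2018 FPM. The log2FC was -4.08 (SE 0.74), and -5.04 without set 5. Agtr1a passed the filter on low counts only through WT VSMC, where it is high, so these values are given as a description. In this comparison 0.00622% of the genes, or 1 gene, were called by edgeR and 2.13% by DESeq2. The other receptor genes overlapped between genotypes, with log2FC -0.35 for Agtr1b and -1.05 (SE 1.35) for Agtr2. Fibroblast markers were lower in KO than in WT VSMC at the median (log2FC -1.72 over 6 markers, 0 called and 4 at an unadjusted p under 0.05 in edgeR). Smooth muscle markers were higher (1.05 over 8, 0 called and 6 at an unadjusted p under 0.05). Of all genes, 12.2% had an unadjusted p under 0.05 in this edgeR comparison. The part of these markers in the Agtr1a difference was not tested.

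Under the stressors the low Agtr1a of KO VSMC was 2.77, 0.55, 0.13 and 1.88 FPM with HG + FFA in sets 5 to 8, 3.81, 0.487, 0.708 and 1.99 FPM with AII + NA, and 0.858, 0.397 and 2.26 FPM with ALL in sets 6 to 8. Set 6 did not rise with AII + NA while the other sets did. The log2FC was 1.31 (SE 0.39, edgeR adjusted p = 0.509) with AII + NA and 1.41 (SE 0.43, adjusted p = 0.231) with ALL. Agtr1b of the same sets, at 1.25, 1.18, 2.17 and 4.82 FPM in Control, was 1.04, 1.19, 1 and 3.42 FPM with HG + FFA, 2.64, 1.6, 3.49 and 5.69 FPM with AII + NA and 1.45, 1.51 and 4.94 FPM with ALL. All 4 sets were higher with AII + NA (log2FC 0.61, SE 0.23, edgeR adjusted p = 0.509), and with ALL the log2FC was 0.01 (adjusted p = 0.992).

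Agtr2 in KO VSMC was detected mainly in sets 5 and 8. Control held 11.4, 0.0864, 0.133 and 2.32 FPM in sets 5 to 8, from 327, 3, 4 and 49 counts, and HG + FFA 7.89, 0, 0.162 and 2.33 FPM. The values with AII + NA were 6.29, 0.0348, 0.0884 and 1.36 FPM, and those with ALL 0.0989, 0.119 and 1.49 FPM in sets 6 to 8. Sets 6 and 7 were at or near the limit of 3 counts throughout, so a change there was not detectable at this depth. The fall with AII + NA (log2FC -0.81, SE 0.30, edgeR adjusted p = 0.509) did not pass, and only sets 5 and 8 had enough counts for a fall to be read. No member was called with AII + NA in KO VSMC, where edgeR called 0% of the genes, with 1711 genes (9.76%) and 3 members at an unadjusted p under 0.05, and DESeq2 called 11 genes (0.0627%). Per length, Agtr1a was at 0.728, 0.217, 0.0242 and 0.0565 of Agtr1b in Control sets 5 to 8, and of all KO VSMC libraries only that of set 5 with HG + FFA had more Agtr1a than Agtr1b (1.4 times).

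Whether the effect of a stressor differed between genotypes was tested directly. With ALL the Agtr1b effect was larger in WT than in KO VSMC by 1.37 (log2, SE 0.33), which did not pass in edgeR (unadjusted p = 0.000318, adjusted p = 0.188) and did in DESeq2 (adjusted p = 0.0244). With AII + NA the difference was 0.84 (SE 0.31, unadjusted p = 0.0112, edgeR adjusted p = 0.395). For Agtr1a the difference with ALL was -0.47 (SE 0.43) and for Agtr2 -0.93 (SE 0.51, edgeR adjusted p = 0.709), neither of them called. Among all genes edgeR called 0.0109% with ALL (2 genes, with 1361 at an unadjusted p under 0.05), DESeq2 called 58 (0.316%), and edgeR called 0% with AII + NA.

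In EC the receptor genes were at the edge of detection. Agtr1a had a lowest, median and highest level of 0, 0.194 and 3.35 FPM in Control, 0, 0.0375 and 3.2 FPM with HG + FFA, 0, 0.0701 and 3.93 FPM with AII + NA, and 0, 0.139 and 4.85 FPM with ALL. It had no count in 12 of 38 EC libraries and at most 165 counts. Agtr1b had none in 18 of 38 libraries and reached 1.01 FPM, and Agtr2 had none in 30 of 38 and reached 0.64 FPM. Stressor effects on Agtr1a were -0.93, -0.70 and -0.26 on the log2 scale with SE of 0.63 to 0.68, and none was called.

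Untreated EC were set beside untreated WT VSMC, with the EC libraries of 1 animal summed to give 8 EC samples against 4. Agtr1a was called lower in EC (log2FC -4.15, SE 0.96, edgeR adjusted p = 0.018), beside 13% of all genes (7.33% higher, 5.7% lower). Agtr1b and Agtr2 entered this fit only through WT VSMC, where they are high, so their levels are given as a description. Agtr1b held 0 to 1.01 FPM in EC Control and 2.1 to 3.94 FPM in WT VSMC Control. Agtr2 held 0 to 0.64 FPM and 0.626 to 15.1 FPM. No other member was called, with log2FC 1 for Ace (SE 0.73, adjusted p = 0.372), -1.72 for Enpep (0.193), 0.44 for Agt, 0.04 for Atp6ap2 and -0.24 for Agtrap. Without EC sets 9, 11 and 13, left out after seeing the data, the Agtr1a value was -6.70. In that fit Agtr1a passed the filter on low counts only through WT VSMC, so the value is a description. The Agtr1a call of the main fit was lost without WT VSMC set 2 (0.0503) or set 4 (0.0515), with 4.07% and 5.35% of all genes called in those fits. Cell type, vascular bed and the batch given in the labels (B1 for VSMC, B2 for EC, of a kind they do not state) cannot be told apart in this comparison.

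Ace, which makes angiotensin II, was lower with ALL in each of the cell types, with log2FC -0.52 for WT VSMC, -1.13 for KO VSMC and, for EC, -1.09, and these were called. With HG + FFA it was lower in every set with a Control library, in all 3 cell types, and was called in EC, where it fell by 1.04.

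In WT VSMC sets 1 to 4, Ace stood at 42.0, 123, 17.9 and 83.4 FPM in Control, 24.1, 101, 12.5 and 72.6 FPM with HG + FFA, 32.4, 96.5, 20.0 and 74.5 FPM with AII + NA, and 29.5, 80, 12.8 and 61.4 FPM with ALL. Set 2 was the highest and set 3 the lowest in each group, so the groups overlapped, while within sets the ALL values were 0.651 to 0.736 of Control. The means were 45.9 and 66.6 FPM (log2FC -0.52, SE 0.11, edgeR adjusted p = 0.00942), a change below the fold limit of the study's rule. Without set 4 the call was lost (log2FC -0.54, adjusted p = 0.0507). With HG + FFA the ratios were 0.574 to 0.87 (log2FC -0.44, SE 0.11, edgeR adjusted p = 0.0942, DESeq2 0.0193). No member was called by edgeR in that comparison, in which 0.538% of the genes were, while 1 member and 11.2% of the genes had an unadjusted p under 0.05 and DESeq2 called 1.74% of the genes.

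In KO VSMC sets 5 to 8, Ace stood at 262, 203, 34.6 and 99.7 FPM in Control, 215, 145, 16.9 and 48.3 FPM with HG + FFA and 246, 179, 27.4 and 86.8 FPM with AII + NA, and sets 6 to 8 at 146, 9.61 and 36.6 FPM with ALL. Sets 5 and 6 were high and set 7 low throughout. The ALL values were 0.28 to 0.721 of Control in the 3 sets (log2FC -1.13, SE 0.19, edgeR adjusted p = 0.02), the only member called of 8 beside 0.399% of the genes (0.12% lower). The call was lost without set 7 (log2FC -0.87, adjusted p = 0.535) or set 8 (-0.99, 0.14). With HG + FFA the ratios were 0.485 to 0.823 (log2FC -0.71, SE 0.17, edgeR adjusted p = 0.101, DESeq2 0.0092). No member was called by edgeR beside 0.439% of the genes (1.4% by DESeq2), although Ace was without set 5 (log2FC -0.86, adjusted p = 0.0201), a fit that called 8.57% of the genes. Against AII + NA, Ace with ALL gave log2FC -0.93 (adjusted p = 0.0542), and -0.95 (0.0282) without set 5, where 0.755% of the genes were called. The Ace effect of ALL did not pass as different between genotypes (WT minus KO 0.62, edgeR adjusted p = 0.533), nor did the Control level (KO against WT, log2FC 1.16, SE 0.68).

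In EC the lowest, median and highest Ace levels were 22.2, 84.4 and 462 FPM in Control, 12.3, 37.1 and 253 FPM with HG + FFA, 18, 72.4 and 426 FPM with AII + NA, and 10, 33.5 and 259 FPM with ALL. The ranges overlapped widely and set 14 was high in every group, while HG + FFA and ALL were below Control in all 9 sets that had both. The ratios were 0.195 to 0.922 with HG + FFA (log2FC -1.04, SE 0.17, edgeR adjusted p = 0.00022) and 0.158 to 0.933 with ALL (log2FC -1.09, SE 0.17, adjusted p = 0.000104). In these comparisons 3.53% and 3.18% of the genes were called (1.88% and 2.04% lower). ALL was also below AII + NA (log2FC -0.77, SE 0.17, edgeR adjusted p = 0.00529, lower in 8 of 9 sets), beside 3.22% of the genes (1.84% lower). AII + NA alone gave -0.32 (adjusted p = 0.719), and ALL did not pass against HG + FFA (-0.05, adjusted p = 1). With the animal in place of the set as block, which joins sets 17 and 18, the 3 Ace calls were lost (-0.89, adjusted p = 0.137, -0.94, 0.12 and -0.75, 0.251). Without sets 9, 11 and 13 the values with HG + FFA and ALL were -1.07 (0.00438) and -1.08 (0.00413), and without sets 15 and 16 -1.12 (0.00208) and -1.21 (0.000794).

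**Figure D3:**
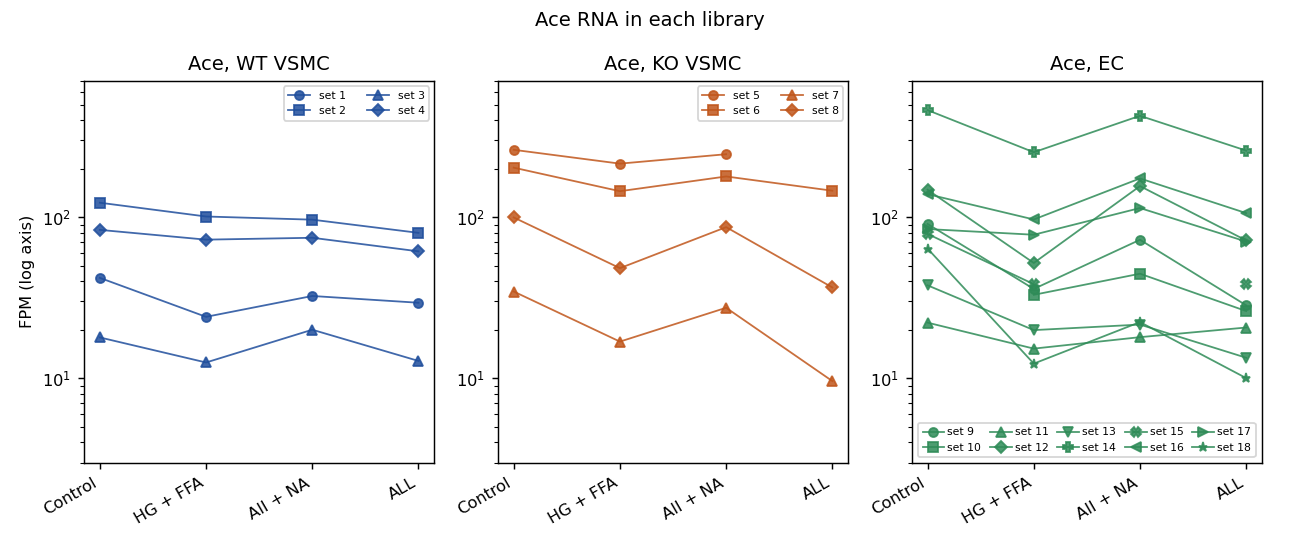
Ace in each library of WT VSMC, KO VSMC and EC, in FPM on a common log axis, with a line for each set through Control, HG + FFA, AII + NA and ALL. Lines drop from Control to HG + FFA and from AII + NA to ALL in most sets, and EC set 14 runs highest, at 462 FPM in Control.

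Agt, the angiotensinogen precursor that is chiefly made in liver, varied more between sets than with stressors. WT VSMC sets 1 to 4 held 26.1, 6.14, 25.5 and 6.03 FPM in Control, 31.2, 7.03, 28.1 and 7.59 FPM with HG + FFA, 24.4, 3.51, 27.9 and 4.95 FPM with AII + NA, and 29.1, 4.98, 24.6 and 8.28 FPM with ALL. Sets 1 and 3 were high and sets 2 and 4 low in every group, the reverse of their order for Agtr2, Ace and Enpep. The log2FC with ALL was 0.07 (SE 0.14) and was not called. In KO VSMC sets 5 to 8 the Control values were 11.5, 1.44, 21.7 and 52.4 FPM, with HG + FFA 17.7, 1.56, 8.55 and 30.6 FPM, with AII + NA 11.5, 1.6, 14.2 and 29.2 FPM, and with ALL 1.19, 6.99 and 28.9 FPM in sets 6 to 8. All 3 sets were lower with ALL (log2FC -0.86, SE 0.28, edgeR adjusted p = 0.267), and without set 5 Agt was called (log2FC -1.03, adjusted p = 0.0355), in a fit that called 1.04% of the genes. In EC the lowest, median and highest Agt levels were 0.14, 4.72 and 122 FPM in Control, 0, 2.87 and 83.3 FPM with HG + FFA, 0.21, 4.37 and 79.6 FPM with AII + NA and 0, 3.11 and 106 FPM with ALL, with no call. Set 13 was the highest and set 14 the lowest EC set.

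Enpep, which removes angiotensin II, was called once, as lower with ALL in EC. Its lowest, median and highest levels in EC were 0.324, 0.791 and 8.5 FPM in Control, 0.0617, 0.452 and 3.17 FPM with HG + FFA, 0, 0.721 and 5.12 FPM with AII + NA and 0, 0.343 and 3.8 FPM with ALL, and the Control values rest on 6 to 364 counts. With ALL, 8 of 9 sets were below Control (log2FC -1.74, SE 0.47, means of 0.796 and 1.69 FPM, edgeR adjusted p = 0.0305), and with HG + FFA the log2FC was -1.37 (SE 0.46, adjusted p = 0.0936). The call with ALL was lost without any 1 of sets 9, 14, 15, 16, 17 or 18 (adjusted p = 0.0517 to 0.0737) without sets 9, 11 and 13 (0.0738), without sets 15 and 16 (0.113) and with the animal as block (0.0709). In WT VSMC sets 1 to 4 Enpep held 1.26, 9.71, 2.48 and 10.7 FPM in Control and 1.3, 8.37, 3.49 and 16.4 FPM with ALL, so sets 2 and 4 were high. In KO VSMC set 5 was high, with 7.96 FPM in Control beside 1.53, 1.43 and 2.41 FPM in sets 6 to 8, and no Enpep effect was called in either.

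Agtrap and Atp6ap2, which act on receptor trafficking and on the proton pump and (pro)renin, were steady. Over all conditions Agtrap ranged from 39.8 to 83.8 FPM for WT VSMC, 48.7 to 76.2 FPM for KO VSMC and, for EC, 28.3 to 88.7 FPM, and Atp6ap2 from 92.1 to 145, 86.9 to 123 and 75.8 to 181 FPM. Neither was called in any comparison in edgeR. In WT VSMC the log2FC of Agtrap stayed within 0.03 of 0 and that of Atp6ap2 between -0.13 and -0.04, and in EC Atp6ap2 gave 0.20 (adjusted p = 0.218) with HG + FFA and 0.18 (0.291) with ALL.

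**Figure D4:**
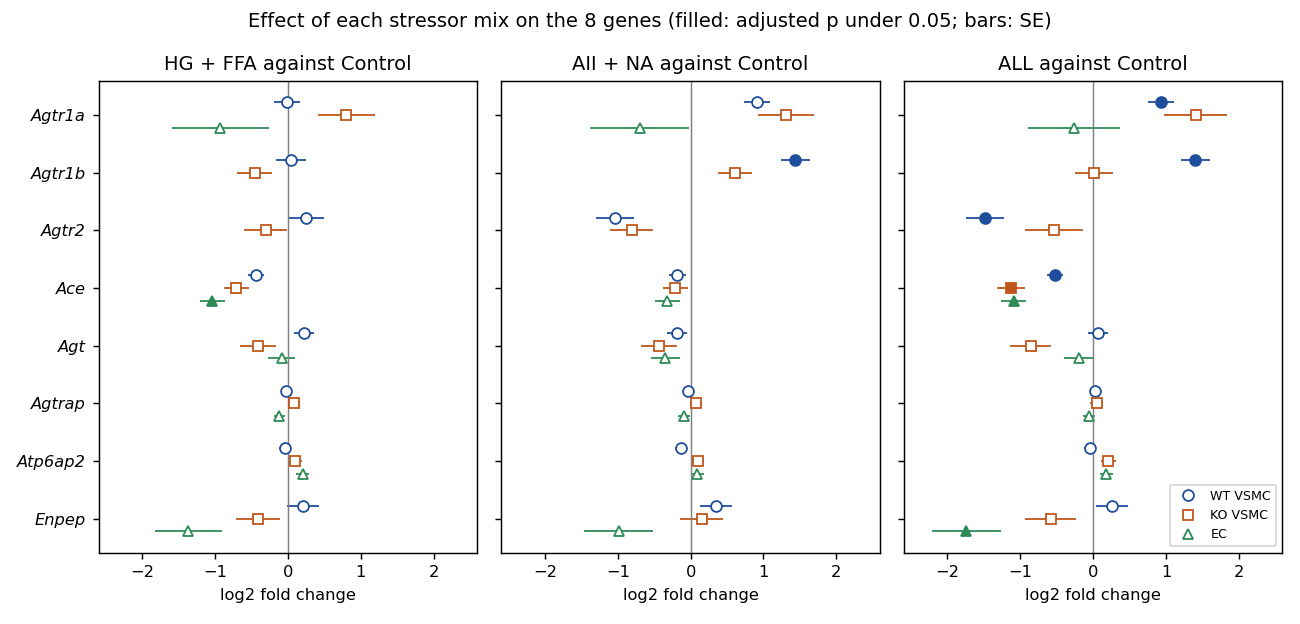
Effect of HG + FFA, AII + NA and ALL against Control on each gene in WT VSMC, KO VSMC and EC, as log2FC with bars for the SE, and filled points where the edgeR adjusted p is under 0.05 (Agtr1b and Agtr2 were not tested in EC). Filled points are Agtr1b with AII + NA in WT VSMC, Agtr1a, Agtr1b, Agtr2 and Ace with ALL in WT VSMC, Ace with ALL in KO VSMC, and in EC Ace with HG + FFA and ALL and Enpep with ALL.

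Over the 8 members the median log2FC was 0.02 with HG + FFA, -0.08 with AII + NA and 0.05 with ALL for WT VSMC and -0.36, 0.09 and -0.26 for KO VSMC, and over the 6 tested members of EC it was -0.52, -0.34 and -0.23, while the median over all tested genes stayed within 0.02 of 0 in these comparisons. In EC no gene was called with AII + NA (0%, with 1143 genes (6.67%) and 1 member at an unadjusted p under 0.05 in edgeR, and 0 in DESeq2).

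Agtr1a, Agt and Ace differed widely between EC sets, also among those low in endothelial markers. Agtr1a averaged 1.29, 0.296 and 3.66 FPM in sets 9, 11 and 13 and 2.67 FPM in set 10, and 0.0169 to 0.169 FPM in the remaining sets. Sets 9, 11 and 13 had summed fibroblast markers of 3632, 9147 and 10004 FPM, against 610 to 4437 FPM in the other EC sets. Their smooth muscle markers summed to 866, 3302 and 3015 FPM, against 219 to 745 FPM. Set 10 had summed endothelial markers of 1964 FPM. Agt averaged 1.32, 29.7 and 97.7 FPM in sets 9, 11 and 13 and 0.0876 to 11.2 FPM in the others. Ace averaged 56.9, 19 and 23.2 FPM in sets 9, 11 and 13 and 27.1 to 350 FPM in the others. Set 9 lay inside the range of the others for both genes. The part of other cells in these values was not tested. Under the stressors the median log2FC of the 9 endothelial markers in EC was 0.01, -0.04 and -0.06 with HG + FFA, AII + NA and ALL against Control and that of 6 fibroblast markers was -0.27, -0.01 and -0.29, with Emcn called higher and Col1a1 lower (-0.73) with HG + FFA.

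**Figure D5:**
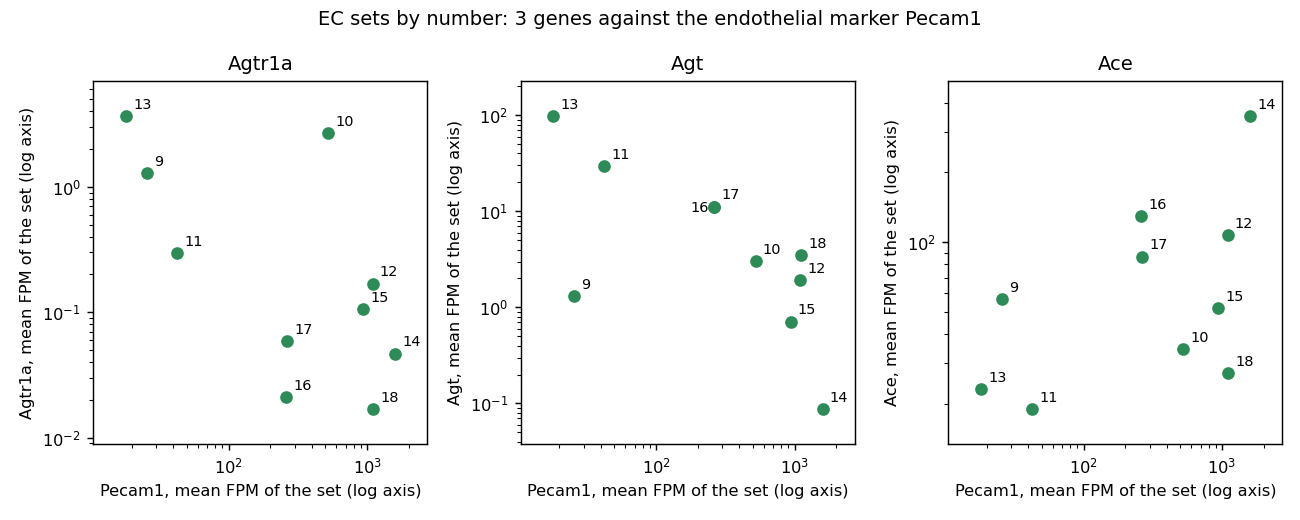
Mean Agtr1a, Agt and Ace level of each of the 10 EC sets against its mean Pecam1 level, all in FPM on log axes, with set numbers beside the points. Sets 9, 11 and 13 lie at the left, with Pecam1 at 25.7, 42.4 and 18.1 FPM, and set 14 carries the highest Ace, 350 FPM, and the lowest Agt, 0.0876 FPM.

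The wider renin-angiotensin system was represented by 16 other genes, of which 12 were tested in WT VSMC. Renin itself, Ren1, reached 32 counts at most in WT VSMC (1.03 FPM) and was at 0 in 13 of 15 KO VSMC and 32 of 38 EC libraries. Mas1, the receptor of angiotensin-(1-7), reached 23 counts in WT VSMC and 46 in EC. Where they passed the filter, Ren1 gave log2FC 0.69 (SE 0.62) with ALL in WT VSMC and Mas1 -0.87 (SE 0.65) with ALL in EC, and neither was called with any stressor. With ALL, 2 of the 12 were called in WT VSMC, 1 higher and 1 lower, beside 3.92% and 3.53% of all genes. Mme, the gene of neprilysin, which degrades several vasoactive peptides, fell from 5.82 to 2.77 FPM (log2FC -0.90, SE 0.24, edgeR adjusted p = 0.0307). Cpa3, a mast cell carboxypeptidase, rose from 0.607 to 1.77 FPM (log2FC 1.51, SE 0.43, adjusted p = 0.0409). The list's median was 0.05 with ALL, and none of its tested genes was called by edgeR in any other stressor comparison with Control. Their number at an unadjusted p under 0.05 was 0 and 2 for the separate stressors of WT VSMC, 1, 2 and 1 in the 3 comparisons of KO VSMC and 2, 3 and 0 in those of EC. The shares over all genes were 11.2% and 9.42%, 12.4%, 9.76% and 10.5%, and 16.9%, 6.67% and 16.2%. In EC against WT VSMC, Anpep, Ctsa and Ctsd were called lower, Anpep with log2FC -4.73 (means of 7.98 and 205 FPM, adjusted p = 0.00483).

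Of 21 genes that couple the AT1 receptor to its effectors, 2 (beside 7.45% of all genes) rose slightly with ALL in WT VSMC, the guanine nucleotide exchange factor Arhgef1 (log2FC 0.23, edgeR adjusted p = 0.0438) and the receptor kinase Grk5 (0.23, 0.0362), with a list median of 0.07. None was called with HG + FFA or AII + NA against Control in any cell type, where 2 and 1 genes of WT VSMC, 4 and 1 of KO VSMC and, for EC, 5 and 1 had an unadjusted p under 0.05 in edgeR. So had 11.2% and 9.42% of all genes of WT VSMC, 12.4% and 9.76% of KO VSMC and, for EC, 16.9% and 6.67%. In EC, ALL against AII + NA lowered Mtus1, whose product binds the AT2 receptor (-0.31, adjusted p = 0.0256), and Hbegf, an EGFR ligand (-0.41, 0.0162). Between cell types 7 of 21 were called higher in EC than in WT VSMC, beside 7.33% of all genes, among them Hbegf (2.65), Plcb1 (2.21) and Itpr1 (2.17).

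Of 12 known angiotensin II target genes 11 were tested, and with ALL in WT VSMC 2 rose, beside 3.92% of all genes. Among them Edn1, the endothelin precursor, went from 11.8 to 42.2 FPM (log2FC 1.59, SE 0.35, edgeR adjusted p = 0.0111). With AII + NA edgeR called none of them in WT VSMC (0.0532% of all genes), and the list median was 0.82. At an unadjusted p under 0.05 were 6, beside 9.42% of all genes. DESeq2 called 3, beside 1% of all genes, among them Edn1 (log2FC 1.5, edgeR adjusted p = 0.139, DESeq2 0.0472) and the matricellular Ccn2 (0.99, 0.2, 0.0447). In KO VSMC edgeR called none with AII + NA either, again with 6 at an unadjusted p under 0.05 (9.76% of all genes), and the list median was 0.26. The list median of the WT minus KO difference in effect was 0.60 with AII + NA and 0.35 with ALL. EdgeR called no gene of the list, and 4 and 5 had an unadjusted p under 0.05, beside 11.9% and 7.42% of all genes. In EC 1 target was called with HG + FFA, Nox4 as higher (0.32, adjusted p = 0.0477), beside 3.53% of all genes (1.64% higher). With ALL 1 was called, Ccn2 as lower (-0.44, 0.0123), beside 3.18% (2.04% lower).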

How the data were processed

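Bulk poly(A) RNA of WT VSMC, KO VSMC and EC was sequenced as paired ends. The deposited values are raw gene counts, which the authors made by mapping to mm39 with HISAT2 2.1.0 and counting exon reads, multiply mapped ones included, with featureCounts per gene of Ensembl. The strand setting is not given in the sources used here. Replicates were not pooled.

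From these counts, 69 libraries were scaled together with TMM for FPM. FPKM used the exon length of each gene, joined over all its transcripts in GENCODE M39 (GRCm39), which matched 56310 of 56953 identifiers. The remaining 643 took 0.0241% of the counts and were kept. Ratios within sets used a pseudocount of 0.1 FPM. Genes passing filterByExpr (minimum count 10) were fitted per cell type over all conditions with edgeR 4.0.16 (R 4.3.3) quasi-likelihood models with the set number as block, and a gene was called when its Benjamini-Hochberg adjusted p was under 0.05. SE was |log2FC| over the root of F. DESeq2 1.42.0 was the alternative. The study's rule for a differentially expressed gene asks for an adjusted p under 0.05 in both tools, an absolute log2FC of at least 0.64 and a mean of at least 3 FPM in 1 group. The difference between genotypes was an interaction term, and Control levels were compared without a block. Same-numbered samples share an animal and passage per the study's methods, and their deviations correlated with a mean r of 0.818, 0.804 and 0.858 in WT VSMC, KO VSMC and EC (lowest 0.495). Within each cell type and treatment, no 2 libraries had the same counts within sampling noise. Pairs across treatments or cell types were not compared in this way. Intervals of counts and limits of 3 counts cover counting error only. Near copies were BLAST matches of at least 95% identity over at least 100 bases. Scripts were tested on simulated counts. The members and the gene lists were chosen with earlier results of these data known. Named from the lists were genes with an adjusted p under 0.05, at most 5 by size per comparison, and genes whose level a result turns on. Alternatives were another scaling, no filter, no block, the animal as block, the 2 groups alone, the study's rule and leaving out sets. The lists of pericyte, leukocyte and cardiomyocyte markers gave 2, 0 and 1 genes called by edgeR with ALL in WT VSMC (4, 1 and 1 at an unadjusted p under 0.05) and no called gene in KO VSMC. In EC they gave 1, 0 and 0 with HG + FFA and none with ALL (1, 0 and 1 at an unadjusted p under 0.05). Over all genes edgeR called 7.45% in WT VSMC and 0.399% in KO VSMC with ALL, and in EC 3.53% with HG + FFA and 3.18% with ALL. At an unadjusted p under 0.05 the shares with ALL were 21.7% in WT VSMC and 16.2% in EC. Amino acid and promoter sequences were not used. Some genes of the lists are counted but not reported here by name.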

Additional observations from a re-analysis of the deposited data

Results flagged for a closer look

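In 88 groups of 4 to 10 libraries, 21 values stood apart from the rest of their group, and most of them came from 2 EC sets. Chance gives such a gap in about 1 of 20 groups only where values are independent and normally distributed. Several EC groups were skewed or had no count in most libraries, and the same sets recur across treatments. The number of values that stood apart therefore cannot be set against that rate, and they are listed as a description. EC set 14 was high for Ace, with 462 FPM in Control (next highest 148), 253 with HG + FFA (96.8), 426 with AII + NA (174) and 259 with ALL (106). The same set was high for Enpep, with 8.5 FPM in Control (2.05), 3.17 with HG + FFA (1.16) and 3.8 with ALL (1.76), and low for Atp6ap2 with ALL, at 75.8 FPM beside 130 in the next lowest library.

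EC set 13, one of the sets low in endothelial markers, was high for Agt, with 122 FPM in Control (next highest 24.3), 83.3 with HG + FFA (41.3), 79.6 with AII + NA (20.6) and 106 with ALL (32.5). It was also high for Agtr1a, with 3.35 FPM in Control (0.987) and 4.85 with ALL (2.02). Agtr1b stood apart in EC set 10 with AII + NA, at 0.99 FPM (0.254).

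Agtr2 in EC stood apart in Control set 18 at 0.64 FPM (0.21), in HG + FFA set 18 at 0.0276, in AII + NA set 13 at 0.0847 and in ALL set 11 at 0.0615 FPM, the other libraries of the last 3 groups being at 0. These last 3 values lie below the limit of 3 counts. In KO VSMC, Enpep of Control set 5 was at 7.96 FPM (2.41) and Agtr1b of HG + FFA set 8 at 3.42 FPM (1.19).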

How the results depend on the processing

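No result reversed. Of 127 alternatives for the counts of called members, leaving out sets apart, 94 gave a count within 1.5 times, 18 more and 15 fewer. Without the set number as replicate block, 0 members were called in WT VSMC with AII + NA (1 with the block), ALL (4) and ALL against HG + FFA (2), in KO VSMC with ALL (1) and in EC with HG + FFA (1), ALL (2) and ALL against AII + NA (1), and 0 genes in all in the WT and KO VSMC comparisons and 2, 2 and 3 in those of EC (605, 546 and 552 with it). With the animal as block the 3 EC counts were 0, 0 and 0 (157, 134 and 159 genes). With ALL in EC, 1 of the 2 members was left with the 2 groups alone, without sets 15 and 16, without sets 9, 11 and 13 (chosen after seeing the data) and under the study's rule.

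With DESeq2 the counts were 3 for WT VSMC with AII + NA, and 1 in place of 0 for WT VSMC with HG + FFA, KO VSMC with HG + FFA, KO VSMC with ALL against AII + NA, KO against WT VSMC and the genotype difference with ALL. With no filter on low counts they were 2 for EC with HG + FFA, 3 for WT VSMC with AII + NA, 3 for KO VSMC with ALL, and 1 in place of 0 for WT VSMC with HG + FFA, WT VSMC with ALL against AII + NA, and KO VSMC with HG + FFA, with AII + NA and with ALL against AII + NA. With the 2 groups alone they were 3 for WT VSMC with AII + NA, 1 with HG + FFA and 0 with ALL against HG + FFA, and 2 and 1 for KO VSMC with ALL against Control and AII + NA. The cause was not tested.

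Leaving out each set gave 0 to 1 called members for WT VSMC with AII + NA, 3 to 4 with ALL and 0 to 3 with ALL against HG + FFA, 0 to 2 for KO VSMC with HG + FFA and with ALL, 0 to 1 with ALL against AII + NA, 1 to 2 for EC with ALL, 0 to 1 for KO against WT VSMC and 1 to 4 for EC against WT VSMC. In the same fits the count over all genes was 0 to 13 for WT VSMC with AII + NA, 494 to 970 with ALL, 0 to 12 with ALL against HG + FFA, 56 to 137 with ALL against AII + NA and 23 to 85 with HG + FFA, 0 to 1442 for KO VSMC with HG + FFA (1442 without set 5), 0 to 175 with ALL, 2 to 127 with ALL against AII + NA, 0 to 397 for KO against WT VSMC (397 without set 5), 0 to 7 for the genotype difference with ALL, 245 to 722 for EC with HG + FFA, 305 to 615 with ALL, 352 to 682 with ALL against AII + NA and 706 to 3382 for EC against WT VSMC.

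Counts over all genes moved by more than 1.5 times in these fits. With DESeq2 they were, for WT VSMC, 294 against 91 with HG + FFA, 169 against 9 with AII + NA, 224 against 7 with ALL against HG + FFA and 541 against 230 with ALL against AII + NA, for KO VSMC 246 against 77 with HG + FFA, 11 against 0 with AII + NA, 259 against 70 with ALL and 300 against 70 with ALL against AII + NA, for EC 969, 895 and 899, for KO against WT VSMC 343 against 1, for the genotype difference with ALL 58 against 2 and for EC against WT VSMC 3610 against 2209. With no filter they were 575, 625, 653 and 966 for the same comparisons of WT VSMC, 598, 268, 464 and 434 for KO VSMC, 44 against 0 with AII + NA, 893 with ALL, 845 with ALL against AII + NA and 126 against 0 with ALL against HG + FFA for EC, and 10 against 1 for KO against WT VSMC. With the 2 groups alone they were 234, 129, 0 and 120 for WT VSMC, 0 against 77 with HG + FFA and 866 against 70 with ALL against AII + NA for KO VSMC, and 248, 156 and 210 for EC. They were 255, 292 and 279 for EC without sets 15 and 16, and without sets 9, 11 and 13 they were 334 with ALL in EC and 30.8% of the genes for EC against WT VSMC. Under the study's rule they were 48 with HG + FFA, 375 with ALL and 92 with ALL against AII + NA for WT VSMC, 50 with HG + FFA for KO VSMC, and 110, 109 and 108 for EC. Depth limits Agtr2 in KO VSMC sets 6 and 7 and the receptors in EC.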
